A study of Cricetulus griseus with 24 samples.

Results

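The 10 genes described here encode components and regulators of mTOR complex 1 (mTORC1). They are Mtor, Rptor and Deptor of the complex, Tsc1, Tsc2 and Rheb of the switch above it, the inducible inhibitors Ddit4 and Sesn2, and the substrates Rps6kb1 and Eif4ebp1. The members were taken by gene symbol from a table of read counts for 28037 genes of the Chinese hamster genome (C_griseus_v1.0), and all 10 passed the filter on low counts in every comparison. In the table, 9 of the 10 carry the gene ID that RefSeq now gives the symbol: Mtor 100755421, Rptor 100761529, Tsc1 100767621, Tsc2 100755849, Rheb 100768233, Ddit4 100759745, Rps6kb1 100757513, Eif4ebp1 100769654 and Sesn2 100771178. The row named Deptor has the ID 103164024, whereas RefSeq gives 103160978, so the identity of that row is less certain.

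RNA of Chinese hamster ovary (CHO) cells, a hamster line grown in suspension and used to make antibodies, was sequenced for the lines A0, A1 and CHO-S at exponential and at stationary phase. A0 is an antibody-producing line of CHO DG44 cells, which were transfected with a plasmid for IgG heavy chain and another for IgG light chain and neomycin phosphotransferase, and then selected in G418. A1 descends from A0 by stepwise selection in methotrexate and carries the same plasmids. CHO-S is a different CHO line, whose library titles also bear the mark NDST. What that mark stands for is not given in the sources used here. Both antibody lines were grown as batch shake cultures in serum-free medium with hydrolysate and recombinant insulin, an agent that feeds into mTORC1 signalling. How CHO-S was grown is not given in the study's methods, so line and medium may not be told apart in comparisons with it. Each line is a single line, so a difference between lines is a difference between these lines and not between classes of producer. There were 4 cultures of A0 and 3 each of A1 and CHO-S per phase, 20 in all, from 24 libraries, because each exponential culture number of A0 had a second library (marked RLT for cultures 1 and 2, Duplicate for cultures 3 and 4) that was summed with the first. The labels do not say that both libraries of a number came from the same culture. Chi-square per degree of freedom between the libraries of a number was 29 and 6.38 for cultures 1 and 2 and 3.29 and 2.88 for cultures 3 and 4. Counting noise alone gives about 1. The labels do not say whether replicates came from separate cultures, although the study's methods name replicate batch cultures, so the p-values measure the spread between these samples, which may be technical.

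Sesn2 and Ddit4, a pair of stress-induced inhibitors of mTORC1, had the widest range of levels over the lines and phases among these 10 genes. In the antibody-producing line A0, Sesn2 was 7.89-fold higher at stationary than at exponential phase. In A1, the amplified progeny of A0, Sesn2 already stood 4.72-fold above A0 at exponential phase and its phase difference did not pass the test. Ddit4 rose towards stationary phase in A0 and in A1, and the mTORC1 substrate gene Eif4ebp1 rose 1.90-fold in A0 and 1.29-fold in A1. The phase differences of Mtor, Rptor, Tsc1, Tsc2 and Rheb that passed the test were at most 0.39 in size on the log2 scale.

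mTORC1 is a protein kinase complex that promotes protein synthesis and cell growth when amino acids, growth factors and energy are sufficient. It is built on the kinase MTOR and the scaffold RPTOR, is switched on at the lysosome by the GTPase RHEB, and is held back by the TSC1-TSC2 complex, which turns RHEB off. DDIT4 acts through the TSC complex and SESN2 senses leucine and acts on the amino acid branch. The transcript levels given here do not measure the activity of the complex, which is set largely by phosphorylation and location of the proteins.

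Counts on genes lay between 6532373 and 14652646 per library, except for culture 1 of CHO-S at stationary phase with 1038026. That library also had 32.8% of its reads outside genes, and its median correlation with the other cultures of its group was 0.872, against at least 0.933 in every other culture. Values of CHO-S at stationary phase are therefore given with and without it. In A0, cultures 1 and 2 deviated from their group means in 1 direction and cultures 3 and 4 in the other, with correlations across the phases of 0.173 to 0.403 within these pairs and -0.366 to -0.139 between them. Levels are given in CPM, counts-per-million scaled with edgeR's TMM factors over the 20 cultures, or over the 24 libraries for values of single A0 libraries. Of 5 genes of fibroblast-like cells, Vim, Fn1, Sparc and Lgals1 were at 220 CPM or more in every culture and Col1a1 did not reach 1 CPM. The oocyte, granulosa, blood and liver genes Fshr, Zp3, Ptprc, Cd3e and Alb stayed under 1 CPM and Amh and Gdf9 under 3 CPM. In such bulk samples, fewer cells with a transcript and less of it per cell cannot be told apart.

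**Figure D1:**
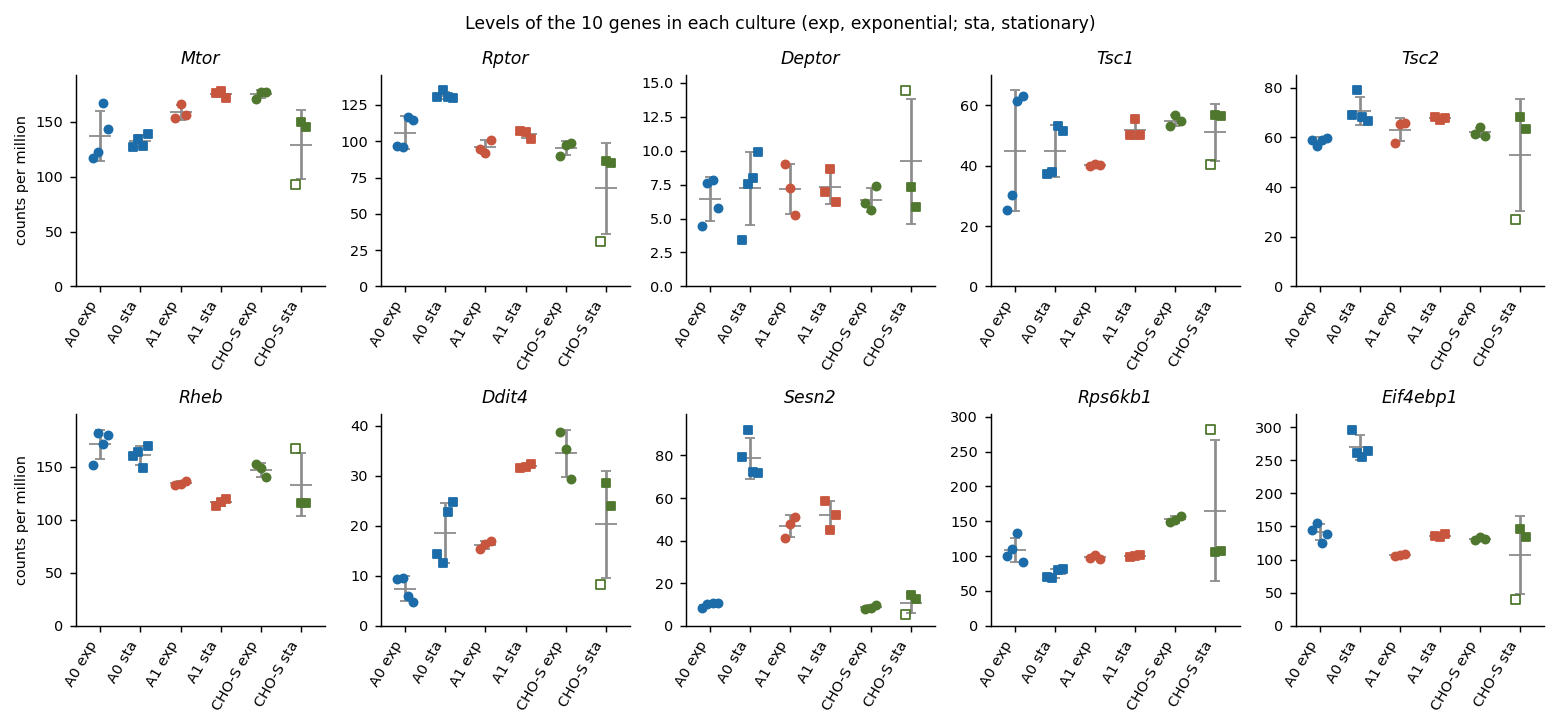
CPM (vertical axes from 0, each gene on its own scale) of the 10 genes in each of the 20 cultures, by line and phase. Circles are exponential and squares stationary cultures, the open square is culture 1 of CHO-S at stationary phase, and grey bars give the group mean and SD. Sesn2 in A0 moves from about 10 to about 80 CPM between the phases, while the A1 cultures lie between 41.2 and 58.6 CPM at both.

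Sesn2 encodes sestrin 2, a leucine-binding inhibitor of the amino acid input to mTORC1. Its levels in the exponential A0 cultures were 8.16, 10.2, 10.6 and 10.6 CPM, and in the stationary ones 79.1, 92.2, 72.1 and 71.6 CPM. The groups did not overlap and the lowest stationary culture was far above the highest exponential one. The rise was 2.98 on the log2 scale (SE 0.123, 95% interval 2.72 to 3.24, edgeR's quasi-likelihood test, adjusted p = 1.68e-10). In A1 the exponential cultures stood at 41.2, 47.7 and 51.3 CPM and the stationary ones at 58.6, 44.9 and 51.9 CPM. These groups overlapped, and the difference of 0.15 (95% interval -0.03 to 0.33) did not pass the test (edgeR, adjusted p = 0.196). It passed in 1 of 12 alternative settings, and all 12 gave values from 0.07 to 0.26. The phase response of A1 was 2.86 below that of A0 on the log2 scale, written -2.86 (SE 0.172, edgeR interaction test, adjusted p = 5.08e-10).

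CHO-S had Sesn2 at 7.79, 8.35 and 9.80 CPM at exponential phase and at 5.16, 14.3 and 12.6 CPM at stationary phase, where the first value is 5 counts from the shallow library. The phase difference was 0.58 with all cultures (edgeR, adjusted p = 0.0918) and 0.66 without the shallow culture (edgeR, adjusted p = 7.74e-06). In the latter setting the 2 remaining stationary cultures lay above all 3 exponential ones. The response of A0 exceeded that of CHO-S by 2.42 (edgeR interaction, adjusted p = 4.54e-06), or by 2.38 without the shallow culture (edgeR, adjusted p = 4.96e-08). That of A1 was -0.43 relative to CHO-S with all cultures (edgeR, adjusted p = 0.321) and -0.53 without the shallow one (edgeR, adjusted p = 0.0102).

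Between the lines, Sesn2 was higher in A1 than in A0 at exponential phase by 2.24 on the log2 scale (SE 0.12, edgeR, adjusted p = 6.58e-09). At stationary phase the order was turned round, with A1 at -0.62 relative to A0 (SE 0.112, edgeR, adjusted p = 0.000636) and no overlap of cultures at either phase. A0 and CHO-S were neighbours at exponential phase, with 9.89 CPM ± 1.17 (SD, n = 4) and 8.65 CPM ± 1.04 (SD, n = 3), and their difference did not pass the test (edgeR, adjusted p = 0.255). Against CHO-S, A1 stood higher by 2.43 at exponential phase (edgeR, adjusted p = 1.22e-15) and by 2.06 at stationary phase (edgeR, adjusted p = 0.000399), or by 1.89 without the shallow culture (edgeR, adjusted p = 1.35e-26). A0 at stationary phase exceeded CHO-S by 2.67 (edgeR, adjusted p = 1.39e-05), or by 2.55 without that culture (edgeR, adjusted p = 3.88e-08). Over the 6 groups the order from the lowest mean was CHO-S exponential, A0 exponential, CHO-S stationary, A1 exponential, A1 stationary and A0 stationary. The A1 pair in that order did not pass its test.

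The libraries of single exponential A0 cultures differed for Sesn2. In culture 3 the first library gave 13.3 CPM and the Duplicate 7.45, and in culture 4 they gave 14.97 and 7.76. Cultures 1 and 2 gave 8.37 and 8.96 in the first library and 7.88 and 11.6 in the RLT library. All 8 libraries were far below the stationary A0 cultures.

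**Figure D2:**
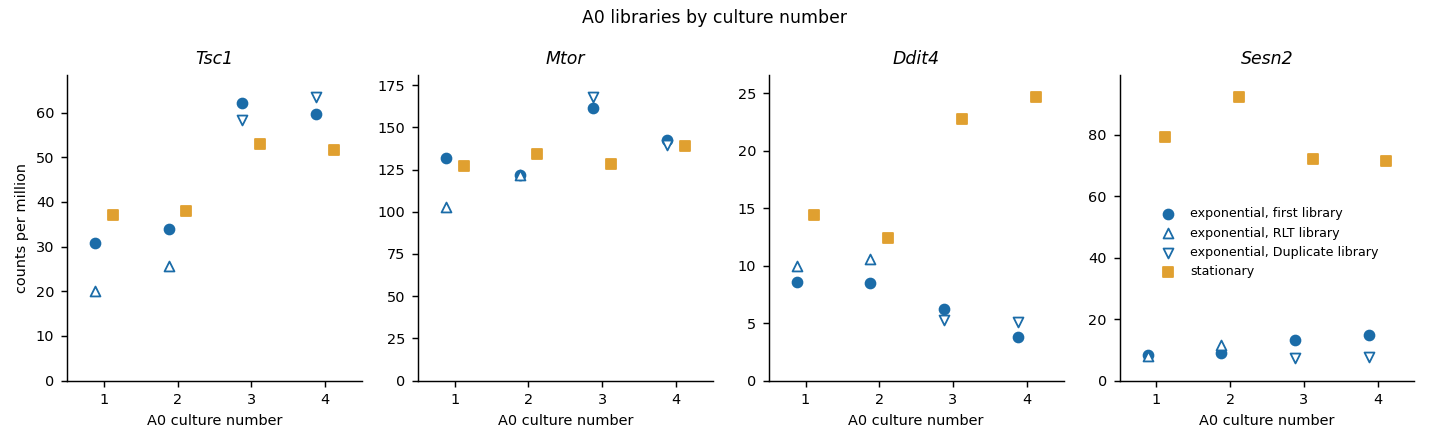
CPM of Tsc1, Mtor, Ddit4 and Sesn2 (vertical axes from 0) in the libraries of A0 by culture number. Blue marks are exponential libraries, filled for the first library and open for the RLT or Duplicate library, and yellow squares are stationary cultures. The former were scaled over the 24 libraries and the latter over the 20 cultures. Tsc1 in cultures 1 and 2 lies between 20.1 and 38.0 CPM and in cultures 3 and 4 between 51.6 and 63.5 CPM.

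Ddit4, also known as Redd1, is induced by hypoxia, energy shortage and other stresses and inhibits mTORC1 through the TSC complex. A0 had 9.39, 9.55, 5.86 and 4.67 CPM at exponential phase and 14.4, 12.4, 22.8 and 24.7 CPM at stationary phase. The groups did not overlap, and cultures 1 and 2 moved less than cultures 3 and 4. Ddit4 rose by 1.32 on the log2 scale in A0 (SE 0.24, edgeR, adjusted p = 0.00035). With cultures 1 and 2 alone the rise was 0.49 and with cultures 3 and 4 alone 2.17, both past the threshold. In A1 it went from 15.3, 16.4 and 16.9 CPM to 31.6, 31.7 and 32.3 CPM, a rise of 0.99 (SE 0.0941, edgeR, adjusted p = 7.13e-10) with no overlap.

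CHO-S showed the opposite order for Ddit4, with 38.7, 35.3 and 29.4 CPM at exponential phase and 8.26, 28.6 and 23.9 CPM at stationary phase. The first stationary value comes from 8 counts. All 3 stationary cultures lay below the exponential ones, but the difference of -0.55 did not pass the test with all cultures (edgeR, adjusted p = 0.21). Without the shallow culture it was -0.37 and passed (95% interval -0.55 to -0.19, edgeR, adjusted p = 0.000376). The phase response of CHO-S differed from that of A0 by 1.85 (edgeR interaction, adjusted p = 0.00447) and from that of A1 by 1.47 (edgeR interaction, adjusted p = 0.00186), higher in the antibody lines in both cases. Without the shallow culture these were 1.75 (edgeR, adjusted p = 0.000784) and 1.35 (edgeR, adjusted p = 2.95e-12). With A0 cultures 1 and 2 alone the difference between A0 and CHO-S was 1.01 and did not pass (edgeR, adjusted p = 0.068). The responses of A1 and A0 differed by -0.37 (95% interval -0.98 to 0.25, edgeR, adjusted p = 0.522). That value depended on the A0 cultures, at 0.46 with cultures 1 and 2 alone (edgeR, adjusted p = 0.0282) and -1.19 with cultures 3 and 4 alone (edgeR, adjusted p = 0.000225).

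At exponential phase Ddit4 was lowest in A0, intermediate in A1 and highest in CHO-S, with no overlap of cultures between any pair of lines. A1 exceeded A0 by 1.13 (edgeR, adjusted p = 0.000945), A0 stood at -2.21 against CHO-S (edgeR, adjusted p = 4.77e-07) and A1 at -1.10 against CHO-S (edgeR, adjusted p = 8.31e-10). At stationary phase A1 still exceeded A0, by 0.76 (edgeR, adjusted p = 0.00547). The difference of either antibody line from CHO-S did not pass the threshold at that phase, with or without the shallow culture.

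Eif4ebp1 encodes 4E-BP1, which binds the cap-binding protein eIF4E and blocks initiation of translation until mTORC1 phosphorylates it. A0 had 145, 155, 126 and 139 CPM at exponential phase and 296, 262, 255 and 265 CPM at stationary phase. The lowest stationary culture was well above the highest exponential one, and the rise was 0.92 on the log2 scale (SE 0.0954, edgeR, adjusted p = 1.56e-06). In A1 the values were 105, 108 and 109 CPM and then 136, 134 and 139 CPM, without overlap, and the rise was 0.36 (SE 0.0587, edgeR, adjusted p = 9.68e-06). The response of A1 was smaller than that of A0 by 0.60 on the log2 scale, written -0.60 (SE 0.12, edgeR interaction, adjusted p = 0.00262).

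CHO-S had 129, 135 and 132 CPM of Eif4ebp1 at exponential phase and 39.2, 147 and 134 CPM at stationary phase. Apart from the shallow culture these groups overlapped, and the difference was -0.25 with it (edgeR, adjusted p = 0.723) and 0.11 without it (95% interval from 0.00 to 0.21, edgeR, adjusted p = 0.0838). The response of A0 exceeded that of CHO-S by 1.12 (edgeR interaction, adjusted p = 0.0382), or by 0.87 without the shallow culture (edgeR, adjusted p = 6.58e-05). The first of these values missed the threshold when any culture but A0 stationary 2 or a stationary CHO-S culture was left out, at 1.07 to 1.18 (edgeR, adjusted p from 0.0543 to 0.0927). The response of A1 exceeded that of CHO-S by 0.56 with all cultures (edgeR, adjusted p = 0.43) and 0.24 without the shallow one (edgeR, adjusted p = 0.0224).

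A1 had less Eif4ebp1 than A0 at exponential phase, by -0.40 (SE 0.0932, edgeR, adjusted p = 0.00548, or 0.159 in a fit of all 6 groups), and at stationary phase, by -0.99 (SE 0.0715, edgeR, adjusted p = 2.4e-07). It also stood below CHO-S at exponential phase by -0.30 (edgeR, adjusted p = 6.34e-06). A0 exceeded CHO-S at stationary phase by 1.27 (edgeR, adjusted p = 0.0118), or by 0.95 without the shallow culture (edgeR, adjusted p = 3.04e-06).

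Rps6kb1 encodes the kinase S6K1, the other main mTORC1 substrate, which acts on ribosomal protein S6 and on translation. It moved against Eif4ebp1 in A0, from 100.2, 110.5, 133 and 91.9 CPM to 69.9, 68.5, 80.1 and 80.9 CPM. The groups did not overlap and the fall was -0.55 (SE 0.116, edgeR, adjusted p = 0.0012). With A0 cultures 3 and 4 alone it was -0.48 and did not pass (edgeR, adjusted p = 0.0927). In A1 the level stayed within 95.5 to 101 CPM at exponential phase and 99.1 to 101 CPM at stationary phase, a difference of 0.05 (95% interval -0.07 to 0.17, edgeR, adjusted p = 0.597). The responses of A1 and A0 differed by 0.56 (SE 0.144, edgeR interaction, adjusted p = 0.0151).

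In CHO-S, the phase difference of Rps6kb1 moved more with the shallow library than that of any of the other 9 genes. The exponential cultures had 149, 152 and 158 CPM and the stationary ones 282, 106 and 108 CPM. With all cultures the difference was 0.08 (edgeR, adjusted p = 0.922), and without the shallow one it was -0.52 (95% interval -0.62 to -0.42, edgeR, adjusted p = 6.34e-15). The response of A1 against CHO-S was likewise 0.02 with all cultures (edgeR, adjusted p = 1) and 0.55 without it (edgeR, adjusted p = 2.34e-07). At exponential phase both antibody lines stood below CHO-S without overlap, A0 at -0.48 (edgeR, adjusted p = 0.00219) and A1 at -0.65 (edgeR, adjusted p = 4.13e-11). At stationary phase A0 was at -1.12 against CHO-S (edgeR, adjusted p = 0.0161), or at -0.49 without the shallow culture (edgeR, adjusted p = 0.000811), and A1 exceeded A0 by 0.41 (edgeR, adjusted p = 0.00121), a call lost in a fit of all 6 groups (0.42, edgeR, adjusted p = 0.145).

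**Figure D3:**
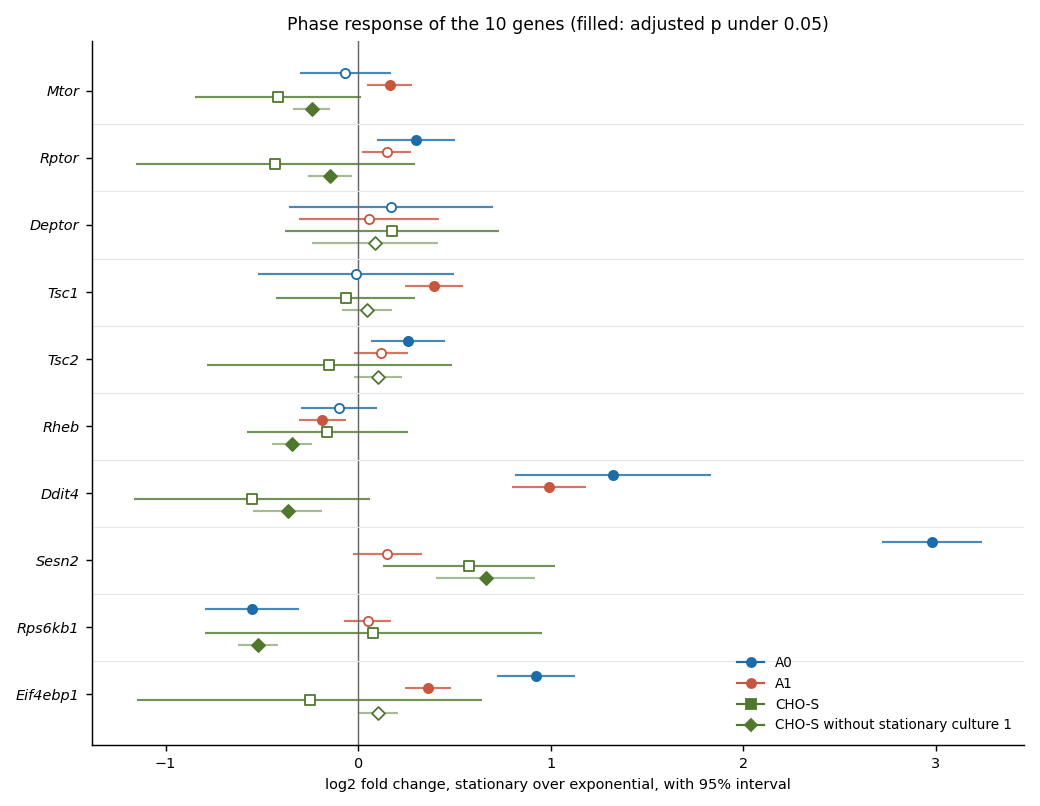
Log2 fold change of stationary over exponential phase (horizontal axis) with its 95% interval for the 10 genes in A0, A1 and CHO-S, the last with and without the shallow stationary culture. Filled marks passed an adjusted p of 0.05 in edgeR. Sesn2 in A0 (2.98) and Ddit4 in A0 (1.32) and A1 (0.99) lie farthest to the right, and the CHO-S intervals narrow when the shallow culture is left out.

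Mtor encodes the kinase of the complex. A0 had 117, 123, 167 and 143 CPM at exponential phase and 127, 134, 128 and 139 CPM at stationary phase. The groups overlapped, with a difference of -0.07 (95% interval -0.30 to 0.17, edgeR, adjusted p = 0.689). A1 went from 153, 166 and 157 CPM to 177, 178 and 172 CPM, a rise of 0.16 (SE 0.057, edgeR, adjusted p = 0.0244) that missed the threshold without A1 exponential culture 1 (0.14), exponential culture 3 (0.15) or stationary culture 2 (0.16). CHO-S went from 171, 177 and 177 CPM to 92.9, 149 and 146 CPM, at -0.42 with all cultures (edgeR, adjusted p = 0.183) and -0.24 without the shallow one (edgeR, adjusted p = 1.63e-05). Without it the responses of A1 and CHO-S differed by 0.39 (edgeR interaction, adjusted p = 7.71e-05), and with it by 0.56 (edgeR, adjusted p = 0.0977).

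Mtor differed between some pairs of lines at each phase. A1 against A0 at exponential phase, at 0.21, did not pass (edgeR, adjusted p = 0.201). Nor did A0 against CHO-S at stationary phase, at -0.004 (edgeR, adjusted p = 0.988), or at -0.14 without the shallow culture (edgeR, adjusted p = 0.162). The difference of A1 from A0 at exponential phase did pass in 2 of 16 alternative settings, and all 16 gave values from 0.03 to 0.40. A0 was below CHO-S at exponential phase by -0.34 (edgeR, adjusted p = 0.0198), a call lost without A0 exponential culture 2 (-0.30) or CHO-S exponential culture 2 or 3 (-0.34 each), and with A0 cultures 3 and 4 alone (-0.18, edgeR, adjusted p = 0.0962). A1 was below CHO-S at that phase by -0.15 (edgeR, adjusted p = 0.00757). A1 exceeded A0 at stationary phase by 0.40 (SE 0.0669, edgeR, adjusted p = 0.000373), with every A1 culture above every A0 culture. Against CHO-S at stationary phase A1 was at 0.40 (edgeR, adjusted p = 0.136), or at 0.22 without the shallow culture (edgeR, adjusted p = 0.00333).

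Rptor encodes raptor, the scaffold that recruits mTORC1 substrates. In A0 it went from 96.5, 95.7, 116 and 115 CPM to 130.2, 135, 130.3 and 129.8 CPM, without overlap, a rise of 0.30 (SE 0.0951, edgeR, adjusted p = 0.0195). Without A0 exponential culture 2 the value was 0.26 and did not pass (edgeR, adjusted p = 0.0709), and with cultures 3 and 4 alone it was 0.17 (edgeR, adjusted p = 0.165). A1 had 91.6 to 101 CPM and then 101.5 to 107 CPM, a difference of 0.15 (95% interval 0.02 to 0.28, edgeR, adjusted p = 0.0673). CHO-S had 89.7, 97.2 and 98.8 CPM and then 31.0, 86.6 and 84.8 CPM, at -0.43 with all cultures (edgeR, adjusted p = 0.401) and -0.15 without the shallow one (edgeR, adjusted p = 0.028). In the latter setting the response of A0 exceeded that of CHO-S by 0.50 (edgeR interaction, adjusted p = 0.011) and that of A1 by 0.28 (edgeR interaction, adjusted p = 0.0153). With all cultures these were 0.68 (edgeR, adjusted p = 0.137) and 0.52 (edgeR, adjusted p = 0.341).

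At stationary phase Rptor was highest in A0. A1 stood at -0.34 against A0 (SE 0.0675, edgeR, adjusted p = 0.00143), a call lost in a fit of all 6 groups (-0.32, edgeR, adjusted p = 0.15). A0 exceeded CHO-S by 0.88 (edgeR, adjusted p = 0.0242), or by 0.63 without the shallow culture (edgeR, adjusted p = 3.36e-05). With the shallow culture kept, that call was lost on leaving out A0 stationary culture 1 (0.89), 2 (0.87), 3 (0.90) or 4 (0.90), at adjusted p from 0.0504 to 0.0587 in edgeR. A1 against CHO-S was at 0.56 (edgeR, adjusted p = 0.191), or at 0.26 without the shallow culture (edgeR, adjusted p = 0.00132).

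Deptor encodes an inhibitor that binds MTOR directly. Its row held 37 to 132 counts per library, and 14 in the shallow one, so its levels of 3.44 to 14.5 CPM carry a wide error. Deptor passed the threshold in 0 of the 12 comparisons, in edgeR and in DESeq2, and in 0 at an unadjusted p of 0.05 in edgeR. The phase differences were 0.17 in A0 (95% interval -0.36 to 0.70), 0.06 in A1 (-0.31 to 0.42) and 0.18 in CHO-S (-0.38 to 0.73), which leaves changes of moderate size in either direction possible at this depth.

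Tsc1 encodes hamartin and Tsc2 tuberin, the partners of the complex that turns RHEB off. Tsc1 in A0 divided the cultures more than the phases, and it was higher at stationary phase in cultures 1 and 2 but lower in cultures 3 and 4. It was at 25.2 and 30.2 CPM in exponential cultures 1 and 2, at 61.2 and 63.1 CPM in cultures 3 and 4, and at 37.1, 38.0, 53.0 and 51.6 CPM in stationary cultures 1 to 4. The first libraries of exponential cultures 1 and 2 gave 30.8 and 33.8 CPM and their RLT libraries 20.1 and 25.6 CPM, so the low level was seen in both kinds of library. The phase difference in A0 was -0.01 (95% interval -0.52 to 0.50, edgeR, adjusted p = 0.996), but 0.43 with cultures 1 and 2 alone (edgeR, adjusted p = 0.0158). A1 against A0 at exponential phase was at -0.16 (edgeR, adjusted p = 0.685), at 0.53 against A0 cultures 1 and 2 alone (edgeR, adjusted p = 0.00116) and at -0.64 against cultures 3 and 4 alone (edgeR, adjusted p = 0.000551).

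In A1, Tsc1 went from 39.8, 40.7 and 40.1 CPM to 50.05, 55.6 and 50.2 CPM, a rise of 0.39 (SE 0.0742, edgeR, adjusted p = 8.61e-05). CHO-S had 53.2, 56.8 and 54.7 CPM and then 40.2, 56.6 and 56.4 CPM, with a difference of -0.06 (edgeR, adjusted p = 0.822), or 0.05 without the shallow culture (95% interval -0.08 to 0.18, edgeR, adjusted p = 0.61). The response of A1 exceeded that of CHO-S by 0.41 with all cultures (edgeR interaction, adjusted p = 0.101) and by 0.33 without it (edgeR, adjusted p = 0.0109). At exponential phase A1 was below CHO-S by -0.45 (edgeR, adjusted p = 8.04e-07).

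In A0, Tsc2 varied less between cultures of a phase than Tsc1 did. It went from 59.1, 56.7, 59.1 and 59.8 CPM to 68.9, 79.0, 68.2 and 66.7 CPM, without overlap, a rise of 0.26 (SE 0.0909, edgeR, adjusted p = 0.0345). That call was lost without A0 exponential culture 2 (0.24) or 3 (0.26), without stationary culture 2 (0.20) or 3 (0.28), and with cultures 3 and 4 alone (0.18). In A1 the difference was 0.12 (95% interval -0.02 to 0.26, edgeR, adjusted p = 0.201), and in CHO-S -0.15 (edgeR, adjusted p = 0.778), or 0.10 without the shallow culture (edgeR, adjusted p = 0.186). Tsc2 passed the threshold in no comparison between lines, with or without that culture.

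Rheb encodes the GTPase that activates mTORC1. In A0 it had 151, 182, 171 and 180 CPM at exponential and 160.4, 164, 149 and 170 CPM at stationary phase, a difference of -0.10 (95% interval -0.30 to 0.10, edgeR, adjusted p = 0.431). In A1 it fell from 133, 134 and 137 CPM to 113, 117 and 120 CPM, by -0.19 (SE 0.0588, edgeR, adjusted p = 0.0138), a call lost without A1 exponential culture 3 (-0.17, edgeR, adjusted p = 0.0511). CHO-S went from 153, 149 and 140 CPM to 167, 116 and 116 CPM, at -0.16 with all cultures (edgeR, adjusted p = 0.608) and -0.34 without the shallow one (edgeR, adjusted p = 1.64e-08).

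Rheb was lower in A1 than in A0 at both phases, at -0.35 at exponential phase (SE 0.0909, edgeR, adjusted p = 0.0103) and at -0.47 at stationary phase (SE 0.0718, edgeR, adjusted p = 0.000159), with no overlap of cultures. The former missed the threshold without A1 exponential culture 1 (-0.34, edgeR, adjusted p = 0.0573). At exponential phase A1 was also below CHO-S, by -0.14 (edgeR, adjusted p = 0.0182), which was lost without CHO-S exponential culture 1 (-0.11) or 2 (-0.13). A0 exceeded CHO-S there by 0.23 (edgeR, adjusted p = 0.0446), a call that did not hold in 12 of 16 alternative settings, among them without A0 exponential culture 2 (0.18), 3 (0.23) or 4 (0.20) and without CHO-S exponential culture 1 (0.24), 2 (0.23) or 3 (0.18). At stationary phase A0 exceeded CHO-S by 0.28 (edgeR, adjusted p = 0.224), or by 0.49 without the shallow culture (edgeR, adjusted p = 0.000381).

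The share of all genes tested that passed is given beside each count of the 10 genes. In A0, 6 of 10 passed the phase test, 5 higher and 1 lower, where 37.7% of all genes tested passed. In the fit that paired cultures by their number 6 of 10 passed as well, and 42.7% of all genes passed. In A1, 5 of 10 passed, 4 higher and 1 lower, against 33.4% of all genes. With edgeR's stricter filter on low counts, 53.3% of all genes passed in A0 and 47.2% in A1, so the counts of the 10 genes lay close to the background. In CHO-S, 0 of 10 passed in edgeR and in DESeq2 with all cultures, 1 had an unadjusted p under 0.05, and 13.3% of all genes passed. Without the shallow culture 6 of 10 passed, 1 higher and 5 lower, where 47.7% of all genes did. With so few members, these counts are a description.

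Between A1 and A0, 4 of 10 passed at exponential phase (25.9% of all genes) and 7 of 10 at stationary phase (33.7%). Between A0 and CHO-S, 4 of 10 passed at exponential phase (49.5%) and 4 at stationary phase (40.0%), or 5 without the shallow culture (51.8%). Between A1 and CHO-S, 7 passed at exponential phase (57.2%) and 1 at stationary phase (34.8%), or 3 without the shallow culture (57.4%). The comparisons share cultures, so their counts are not independent. For the difference of phase responses, 3 of 10 passed between A1 and A0 (8.94% of all genes), 3 between A0 and CHO-S (10.3%) and 1 between A1 and CHO-S (7.60%). Without the shallow culture the last 2 became 4 (17.2%) and 7 (25.4%).

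ATF4 is a transcription factor that the amino acid and unfolded protein responses switch on, and Sesn2 and Ddit4 are among the genes it is known to induce. Atf4 and 8 genes known as its targets were tested beside the members, and another target, Vldlr, had no row of that name. In A0, 8 of the 9 rose towards stationary phase, with a median log2 fold change of 1.78, and in A1 8 of 9 rose as well, with a median of 1.17. The medians over all genes tested were 0.00 and 0.03, and 37.7% and 33.4% of them passed, in either direction. In A0, Trib3 rose by 3.84 (edgeR, adjusted p = 7.51e-11), Ddit3 by 3.74 and Atf4 itself by 1.30. In A1, Chac1 rose by 2.52, Ddit3 by 2.34 (edgeR, adjusted p = 7.89e-19) and Atf4 by 1.17.

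The responses of 4 of these 9 genes were smaller in A1 than in A0, where 8.94% of all genes differed in response, in either direction. They were Trib3 at -1.60 (edgeR interaction, adjusted p = 4.29e-06), Slc7a11 at -1.52, Ddit3 at -1.44 and Atf3 at -0.87. These 4, Atf4 itself and Psat1 in CHO-S were named after their values were seen. In CHO-S, where 13.3% of all genes passed, the list held genes of both directions. Atf3 at 2.53 and Ddit3 at 2.49 rose, and Psat1 at -1.06 fell, while Atf4 stood at -0.05 (edgeR, adjusted p = 0.836). Without the shallow culture 3 rose and 4 fell, where 47.7% of all genes passed, with Atf3 at 2.52, Ddit3 at 2.07, Psat1 at -0.83 and Atf4 at -0.11 (edgeR, adjusted p = 0.042).

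**Figure D4:**
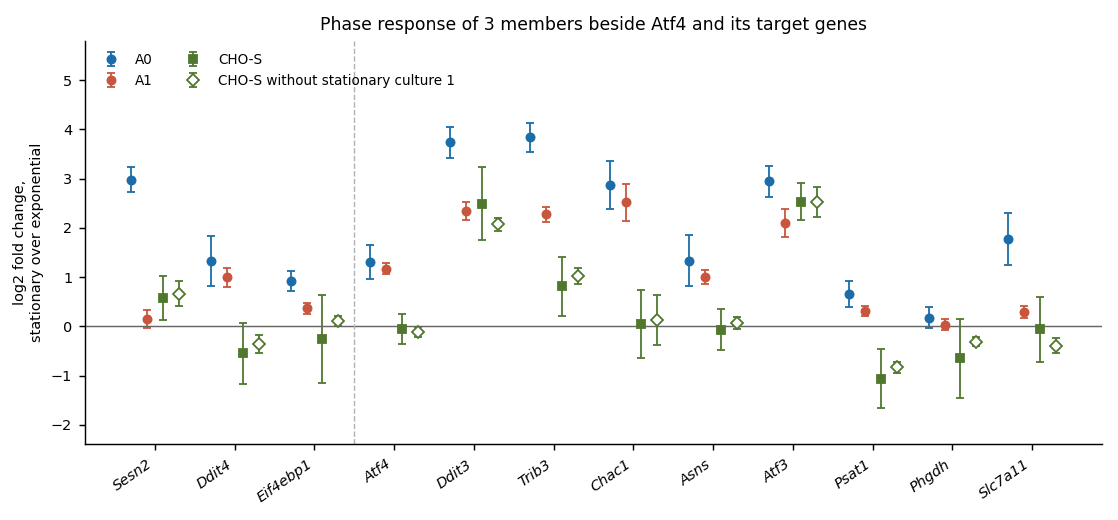
Log2 fold change of stationary over exponential phase (vertical axis) with 95% intervals for Sesn2, Ddit4 and Eif4ebp1, left of the dashed line, and for Atf4 and 8 genes known as its targets, by line. Sesn2 in A1 (0.15) lies near 0, whereas Ddit3 (2.34), Chac1 (2.52) and Atf4 (1.17) in A1 do not.

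Genes induced by hypoxia, another known inducer of Ddit4, were tested as a list of 8, of which Car9 had no row of that name and Egln3 did not exceed 0.252 CPM in any culture. In A0, where 37.7% of all genes passed, 2 of 7 rose and 1 fell, among them Vegfa at 1.13 (edgeR, adjusted p = 6.39e-07) and Slc2a1, a glucose transporter, at -0.48. In A1, where 33.4% of all genes passed, 4 rose and 1 fell of 6 tested, with Vegfa at 1.16 and Slc2a1 at -0.38. In CHO-S, where 13.3% of all genes passed, 4 of 6 rose, among them Bnip3 at 2.67 (edgeR, adjusted p = 0.00134) and Ndrg1 at 1.06. Without the shallow culture, where 47.7% of all genes passed, all 6 rose, with Bnip3 at 2.58 and Ndrg1 at 1.081. Ddit4 in CHO-S lay on the other side of 0, as given above. Whether hypoxia or ATF4 acted on Ddit4 or Sesn2 in these cultures was not tested.

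The rest of the pathway was followed in 66 genes of 5 lists. In A0, 27 of 63 tested passed the phase test, 11 higher and 16 lower (42.9%), in A1 28 of 62, 12 higher and 16 lower (45.2%), and in CHO-S 5 of 59 (8.47%), or 29 of 59 without the shallow culture (49.2%). The brackets give shares of the pathway genes. Of all genes tested, 37.7% passed in A0, 33.4% in A1 and 13.3% in CHO-S, or 47.7% without the shallow culture. With edgeR's stricter filter 53.3% passed in A0 and 47.2% in A1, so the pathway counts lay near the background. These shares also apply to the counts of single lists below. Of the subunits and assembly factors of the mTOR complexes, 2 of 9 fell in A0 and 4 of 9 in A1. Tti1, which helps to assemble the kinase, fell in both, by -0.61 in A0 and -0.45 in A1, Mapkap1 of mTORC2 fell by -0.37 in A0 and Prr5 by -0.64 in A1. In CHO-S, Mlst8, the beta-propeller subunit of both mTOR complexes, fell by -0.63, or by -0.56 without the shallow culture.

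Among the Rag GTPases and Ragulator, which place mTORC1 on the lysosome, 4 rose and 1 fell of 9 tested in A0 and 3 rose and 1 fell in A1. Slc38a9, a lysosomal arginine sensor, rose by 0.45 in A0 and by 0.30 in A1, Lamtor4 rose by 0.60 in A0 and Rragb by 0.39 in A1. Of the GATOR, KICSTOR and sensor genes, 7 of 18 passed in A0 and 6 of 17 in A1. Fnip2, a partner of folliculin, rose in all 3 lines, by 0.57 in A0, 1.01 in A1 and 0.62 in CHO-S (0.70 without the shallow culture). Sesn1, the relative of Sesn2, fell by -0.53 in A0, opposite to Sesn2, and Flcn rose by 0.56 in A1. In CHO-S, Itfg2 of KICSTOR fell by -0.59, or by -0.58 without the shallow culture.

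Among upstream kinases and other regulators, 4 of 13 fell in A0, among them Stk11, the kinase above AMPK, at -0.41 (edgeR, adjusted p = 0.00172). In A1, 1 rose and 4 fell, with Akt1, a kinase of the insulin branch, at -0.38 (edgeR, adjusted p = 2.21e-06). In CHO-S, 1 rose and 1 fell of 12, the latter being Rhebl1 at -0.67, or at -0.62 without the shallow culture, where 4 rose and 3 fell. Of the other substrates and effectors, 3 rose and 6 fell of 14 in A0 and 4 rose and 5 fell in A1. Tfeb, the transcription factor of lysosomal genes, fell by -1.11 in A0 and Eif4e, the partner of 4E-BP1, by -0.89. The Eif4e groups overlapped, with 138.1 to 327.6 CPM at exponential and 131.4 to 144.7 CPM at stationary phase. In A1, Pdcd4, a translation inhibitor that S6K1 marks for decay, rose by 0.68 and Atg13 of the autophagy kinase complex by 0.47. Between A1 and A0, 4 of 63 pathway genes differed in response (6.35%), where 8.94% of all genes did. All 4 had the higher value in A1, among them Rragb at 0.53 and Rps6kb2 at 0.53, named after their values were seen.

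Across the 20 cultures, Sesn2, Ddit4 and Eif4ebp1 had the widest range of group means, at 3.18, 2.28 and 1.55 on the log2 CPM scale. The lowest group of Eif4ebp1 was CHO-S at stationary phase, whose mean was 106.8 CPM with the shallow culture and 140.6 CPM without it. Over 10588 genes with a mean of at least 5 CPM, the pattern of Sesn2 was most like that of Plk2 (Pearson r = 0.954), Sccpdh (r = 0.944) and LOC100755834 (r = 0.943). That of Ddit4 was most like Rnf114 (r = 0.887), Tsku (r = 0.885) and LOC103161546 (r = 0.884), and that of Eif4ebp1 most like Npc2 (r = 0.966), Sgsm3 (r = 0.961) and Slc45a1 (r = 0.961). Over the 19 cultures without the shallow one these coefficients lay between 0.873 and 0.971. Among the members, Rptor and Tsc2 had r = 0.904 over 20 cultures and r = 0.475 over 19, and Mtor and Tsc2 went from 0.588 to 0.0124. The 20 points are cultures of 6 groups that share line and phase, so these coefficients carry no test.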

How the data were processed

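The authors sequenced poly(A) RNA (TruSeq Stranded mRNA, NextSeq) and deposited 1 table of read counts per gene, made per the methods and processing notes by alignment with STAR 2.5.4b to C_griseus_v1.0 and counting with HTSeq 0.7.2. The strand setting of the counting is not given in the sources used here, so reads of overlapping antisense genes may not be told apart. The table's summary lines, which are no genes, were left out (per library, 2.31 to 11.5% of reads not aligned, 12.7 to 14.8% not uniquely aligned, 11.9 to 32.8% outside genes and 0.357 to 0.403% ambiguous). Libraries of A0 with the same culture number were summed. Each comparison was fitted on its own groups (2, or 4 for differences of phase responses) with edgeR 4.0.16 in R 4.3.3, on genes that had 1 count or more in 2 or more cultures and varied, TMM factors, the two-sided quasi-likelihood test and Benjamini-Hochberg adjustment over all genes at 0.05. SE was |log2 fold change| over the square root of F. CPM of cultures came from TMM factors over all 20 cultures, so ratios of CPM can differ slightly from fitted folds. CPM of single A0 libraries came from TMM factors over the 24 libraries before summing. DESeq2 1.42.0, RLE factors, other filters, a replicate block, a fit of all 6 groups and subsets of cultures were alternatives, and the code was tested on simulated data. Library depth limits the precision of low genes.

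The members and gene lists were chosen with earlier results of these data known. All members were named. From each list and phase comparison at most 2 genes were named, those past the threshold with the largest absolute log2 fold change among genes with a mean of at least 5 CPM. For the 3 members with the widest range of group means, the 3 genes with the highest correlation were named. In the lists, 82 of 84 other genes were found in the table. Gene IDs were matched to RefSeq's gene table for CriGri-PICRH-1.0, another build, so no coordinates are given. Deviations from group means in the phase comparison of A0 correlated at 0.19 to 0.403 in the 4 same-numbered pairs. Differently numbered pairs lay at -0.366 to 0.3. These values set cultures 1 and 2 apart from cultures 3 and 4 more than they followed the number. Within cultures 1 and 2 the same-numbered pairs were higher (0.403 and 0.298, against 0.232 and 0.173). Within cultures 3 and 4 they were lower (0.248 and 0.19, against 0.269 and 0.3). In every other comparison at least 1 same-numbered pair lay below 0.1. Some genes of the lists are counted but not reported here by name.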

Additional observations from a re-analysis of the deposited data

Results flagged for a closer look

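The phase response differed between lines, by the interaction test in edgeR, for Sesn2 (A1 minus A0 -2.86, A0 minus CHO-S 2.42), Eif4ebp1 (A1 minus A0 -0.60, A0 minus CHO-S 1.12), Ddit4 (A0 minus CHO-S 1.85, A1 minus CHO-S 1.47) and Rps6kb1 (A1 minus A0 0.56), all on the log2 scale. These comparisons share cultures, and the values for CHO-S include the shallow stationary culture 1. Without it they were 2.38 for Sesn2, 0.87 for Eif4ebp1, and 1.75 (A0) and 1.35 (A1) for Ddit4. In 2 of 20 sets of 4 A0 cultures a single culture stood apart, with a ratio of its gap to the whole range above Dixon's 95% critical value. Sesn2 was low in A0 exponential culture 1 (ratio 0.841) and Rptor was high in A0 stationary culture 2 (ratio 0.906). The Sesn2 flag holds for summed libraries only. As single libraries, culture 1 gave 8.37 and 7.88 CPM, above the Duplicate libraries of cultures 3 and 4 at 7.45 and 7.76 CPM. Chance gives about 1 such set in 20.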

How the results depend on the processing

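Of 120 values (10 genes in 12 comparisons), 45 were past the threshold, 21 of these stayed so with the same sign under every alternative run, and 0 of the 45 changed sign. Some of the values not past the threshold passed it under an alternative. Rptor in the phase test of A1 did so in 2 of 12 alternatives, and Tsc1 in A1 against A0 at stationary phase in 2 of 15. Among all 1910 alternative values 105 changed sign. The cause of the changes listed here was not tested. For the phase difference of A0, Mtor was 0.12, Tsc1 0.43 and Deptor -0.11 with cultures 1 and 2 alone. Tsc1 there was 0.017 with DESeq2, 0.019 with RLE factors, 0.032 with edgeR's stricter filter, 0.072 with the replicate block and 0.0021 in the fit of all 6 groups. Leaving out single cultures gave -0.13 to 0.039 for Mtor, -0.20 to 0.21 for Tsc1 and -0.024 to 0.40 for Deptor in A0, and -0.13 to 0.26 for Deptor in A1. In CHO-S it gave -0.13 to 0.047 for Tsc1, -0.34 to 0.10 for Tsc2, -0.52 to 0.33 for Rps6kb1 and -0.52 to 0.11 for Eif4ebp1, with 1 end of each range set by leaving out stationary culture 1. For A1 against A0 at exponential phase Tsc1 was 0.53 with A0 cultures 1 and 2 alone and -0.36 to 0.049 without single cultures. The response of A1 minus that of A0 was 0.46 for Ddit4 with A0 cultures 1 and 2 alone. The response of A1 minus that of CHO-S for Rps6kb1 was -0.11 with DESeq2, -0.036 with RLE factors, -0.0022 with the stricter filter and -0.23 to 0.55 without single cultures.

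The number of genes past the threshold fell to 3 for the phase test of A0 with cultures 3 and 4 alone (27.8% of all genes). Shares of all genes past the threshold stand in brackets beside the counts. In the fit of all 6 groups, which holds the shallow culture, it was 1 for the phase test of A1 (11.6%, Ddit4 alone, so Tsc1, Eif4ebp1, Rheb and Mtor lost their calls), 2 for that of CHO-S (19.2%), 3 for A1 against CHO-S at exponential (35.3%) and 4 at stationary phase (38.8%), and 1 for A1 minus A0 (4.56%). That fit also ended the calls of Rptor and Tsc2 in the phase test of A0, of Eif4ebp1 in A1 against A0 at exponential phase, of Rptor and Rps6kb1 at stationary phase, of Mtor, Tsc1, Rheb and Eif4ebp1 in A1 against CHO-S at exponential phase, of Rheb in A0 against CHO-S at that phase, and of Rps6kb1 and Eif4ebp1 in A1 minus A0 (adjusted p of 0.308 and 0.253 in edgeR). With A0 cultures 1 and 2 or 3 and 4 alone it was 1 and 1 for A0 against CHO-S at stationary phase (30.2 and 29.7%), and 5 and 6 for A1 minus A0 (22.7 and 9.06%). It was 1 for A0 minus CHO-S with cultures 1 and 2 alone (9.97%) and 2 for A1 minus CHO-S with DESeq2 (10.3%). Without single cultures it ranged from 0 to 6 for the phase test of CHO-S (0.00 to 47.7%), from 2 to 4 for A0 against CHO-S at exponential phase (42.0 to 52.4%), from 1 to 3 for A1 against CHO-S at stationary phase (22.8 to 57.4%) and from 1 to 7 for A1 minus CHO-S (4.01 to 25.4%), and the highest values for CHO-S at stationary phase and for A1 minus CHO-S came without stationary culture 1. The pairing by culture number changed no call of the 10 genes in the phase test of A0. Elsewhere the samples share only a number, and a replicate block gave -0.065 for Rps6kb1 in CHO-S, 0.15 for Tsc1 in A1 against A0 at exponential phase, and counts of 5 for A0 against CHO-S at exponential phase, 8 for A1 against A0 at stationary phase and 4 for A0 minus CHO-S, with the other counts as without it. Depth limits Deptor in every library and all 10 genes in the shallow one.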
